A study of Homo sapiens with 2 samples.

Results

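HMOX1, TXNRD1, SRXN1, OSGIN1 and TALDO1 are 5 genes of the redox response linked to the transcription factor NRF2, and they were taken as the probe sets that the platform annotation names for them. All 5 were found among the 14884 named genes of the array, each with 1 probe set, and all 5 were among the 7442 genes kept because their mean log2 level over both arrays reached a floor of 4.79, the median over genes. The cells were of the human line AsPC-1, an established pancreatic adenocarcinoma line, cultured in 3 dimensions under a collagen gel overlay. In the compressed group (1 culture) a compressive stress of 2.9 mmHg was held on them for 24 h, and in the uncompressed group (1 culture) they were held for the same 24 h without it. Total RNA of each culture was read on 1 whole-transcript array, and the deposited level of a probe set is a log2 signal. With 1 array per group no difference can be tested or set against a spread between cultures, and the precision is limited by the number of arrays. "Higher" and "lower" describe these 2 arrays.

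NRF2, encoded by NFE2L2, is held in the cytoplasm by KEAP1, which hands it to a CUL3 ubiquitin ligase for degradation. Oxidants and electrophiles modify KEAP1, NRF2 then accumulates, pairs with small MAF proteins and binds antioxidant response elements near genes of glutathione, thioredoxin, NADPH and heme metabolism. HMOX1 encodes heme oxygenase 1, which opens heme to biliverdin, carbon monoxide and iron, and the repressor BACH1 holds it down until heme displaces BACH1, so HMOX1 also answers to heme and to other stress pathways. TXNRD1 encodes the cytosolic thioredoxin reductase, SRXN1 the sulfiredoxin that repairs over-oxidised peroxiredoxins, TALDO1 the transaldolase of the pentose phosphate pathway, and OSGIN1 an oxidative stress-induced growth inhibitor.

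The compressed culture had a higher level of all 5 genes, by very different amounts. HMOX1 was 2.35-fold higher, and the other 4 were between 1.14-fold and 1.32-fold higher. At a size of 1.5-fold (0.58 on the log2 scale), 1 of the 5 genes was higher and 0 were lower, against 3.95% of all kept genes that were higher and 1.12% that were lower. A positive difference was found for 50.8% of all kept genes, whose median difference was 0.01. With no filter on level, the shares past 1.5-fold were 3.76% higher and 2.83% lower. The median over the 5 genes was 0.36. The 5 genes were chosen with earlier results of these data known, so their shared direction and this median are descriptions and no test.

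HMOX1, measured by probe set 16929562, read 7.16 on the compressed array and 5.92 on the uncompressed array. The level was thus well over the floor on both arrays, and the difference was 1.23 on the log2 scale. Of the 7442 kept genes, 37 (0.497%), HMOX1 included, had a difference at least as large. Among the 1993 kept genes whose mean level was within 0.5 of that of HMOX1, 13 (0.652%) did. The 5 kept genes whose pair of levels lay nearest to that of HMOX1 were LINC01061, HERC2P9, AHNAK2, KLF7 and LINC-PINT. Their distances ran from 0.016 to 0.19 in log2 units over the 2 arrays, and 2 arrays carry little information on likeness.

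TXNRD1, measured by probe set 16756163, read 7.96 on the compressed array and 7.55 on the uncompressed array. The difference of 0.41 (1.32-fold) was the largest of the 4 genes beside HMOX1 and stayed under 1.5-fold. A difference at least as large was found for 683 kept genes (9.18%) and for 69 of 1081 (6.38%) at a like level. TXNRD1 is shown with the promoter windows of RefSeq (GRCh38.p14, 250 bases before to 50 after a transcript start), because antioxidant response elements are the sites through which NRF2 acts. The table held windows for 4 of the 5 genes, TXNRD1, SRXN1, OSGIN1 and TALDO1, with 2 windows for TXNRD1, and HMOX1 had no entry. Capitals mark matches, searched on both strands, to the element core TGACNNNGC or to the AP-1 element TGANTCA, which can overlap each other. The plus-strand windows below are TXNRD1 at chr12:104215529-104215828 (upstream) and chr12:104286782-104287081 (downstream) and OSGIN1 at chr16:83952990-83953289.
TXNRD1, upstream start: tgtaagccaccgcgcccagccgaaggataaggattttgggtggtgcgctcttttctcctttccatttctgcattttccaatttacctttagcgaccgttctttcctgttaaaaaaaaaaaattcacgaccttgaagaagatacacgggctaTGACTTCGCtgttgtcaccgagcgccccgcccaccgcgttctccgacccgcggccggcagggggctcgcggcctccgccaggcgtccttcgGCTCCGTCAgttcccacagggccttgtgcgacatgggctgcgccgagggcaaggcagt
TXNRD1, downstream start: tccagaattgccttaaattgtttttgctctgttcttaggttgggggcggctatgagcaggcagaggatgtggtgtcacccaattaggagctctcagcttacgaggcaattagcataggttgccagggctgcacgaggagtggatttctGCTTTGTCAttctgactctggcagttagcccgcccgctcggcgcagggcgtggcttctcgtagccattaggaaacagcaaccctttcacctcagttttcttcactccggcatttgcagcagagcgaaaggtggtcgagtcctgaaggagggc
OSGIN1: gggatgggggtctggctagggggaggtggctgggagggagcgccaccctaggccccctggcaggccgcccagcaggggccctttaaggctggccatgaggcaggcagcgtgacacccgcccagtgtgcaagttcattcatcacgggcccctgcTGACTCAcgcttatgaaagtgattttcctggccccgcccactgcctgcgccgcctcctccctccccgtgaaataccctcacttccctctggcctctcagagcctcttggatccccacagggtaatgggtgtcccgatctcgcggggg
The upstream TXNRD1 window held 2 matches to the element core, at bases 152 to 160 and 243 to 251, counted from the 5′ end. The first is TGACTTCGC. The second lies on the minus strand and is printed in plus-strand letters as GCTCCGTCA. The downstream window held 1 on the minus strand, printed in plus-strand letters as GCTTTGTCA, at bases 149 to 157. Of 35116 windows of 300 bases, 13.3% held at least 1 such match. A match of letters describes the sequence and was not tested as a binding site.

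OSGIN1, measured by probe set 16821414, read 5.20 on the compressed array and 4.84 on the uncompressed array, just above the floor. The difference was 0.36 (1.28-fold), and 856 kept genes (11.5%) had one at least as large, as did 252 of 1994 (12.6%) at a like level. Its window, printed above, held the AP-1 element TGACTCA at bases 154 to 160 and no match to the element core; 7.71% of windows held an AP-1 element. OSGIN2, its paralog, read 6.88 on the compressed array and 6.81 on the uncompressed array, a difference of 0.06.

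SRXN1, measured by probe set 16916352, read 7.99 on the compressed array and 7.80 on the uncompressed array. Its difference of 0.19 (1.14-fold) was the smallest of the 5 and was met or passed by 1793 kept genes (24.1%). TALDO1, measured by probe set 16720318, read 7.05 on the compressed array and 6.82 on the uncompressed array. Its difference of 0.23 (1.17-fold) was met or passed by 1526 kept genes (20.5%). Neither the SRXN1 nor the TALDO1 window held a match to either motif. For scale, 134 protein-coding genes had exactly 2 probe sets, both at or above the floor, with pairs of identical differences left out. The disagreement within these pairs corresponded to an SD of 0.187 for the difference of a single probe set. This SD covers the probe sets of the same 2 RNA samples and not the spread between cultures. The difference of SRXN1 was 1.04 times this SD, that of TALDO1 1.21 times, that of OSGIN1 1.91 times, that of TXNRD1 2.17 times and that of HMOX1 6.60 times.

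**Figure D1:**
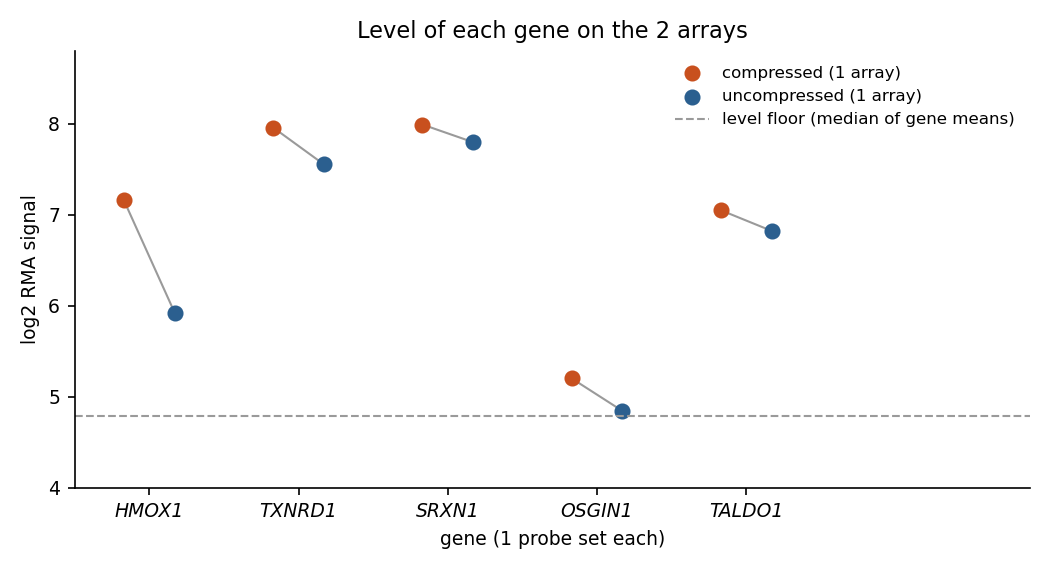
Log2 RMA signal (vertical axis) of each of the 5 genes (horizontal axis) on the compressed array (orange, left) and the uncompressed array (blue, right), with 1 array per group and the level floor of 4.79 as a dashed line. The line of HMOX1 runs between 7.16 and 5.92, while those of the other 4 genes span 0.19 to 0.41.

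The contrast of HMOX1 with the other NRF2-linked genes was given by the difference between their differences. HMOX1 exceeded TXNRD1 by 0.83, OSGIN1 by 0.88, TALDO1 by 1.01 and SRXN1 by 1.04 on the log2 scale. Against the median of the other 4 genes, 0.29, the excess was 0.94, which is a 1.92-fold ratio of fold changes. The gaps to the single genes were 3.14 to 3.93 times the SD of the gap between 2 probe sets of 1 gene, 0.264, and no gap has a replicate check. The genes contrasted were chosen with earlier results of these data known. These gaps and all multiples of an SD given here are thus descriptions and no test.

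**Figure D2:**
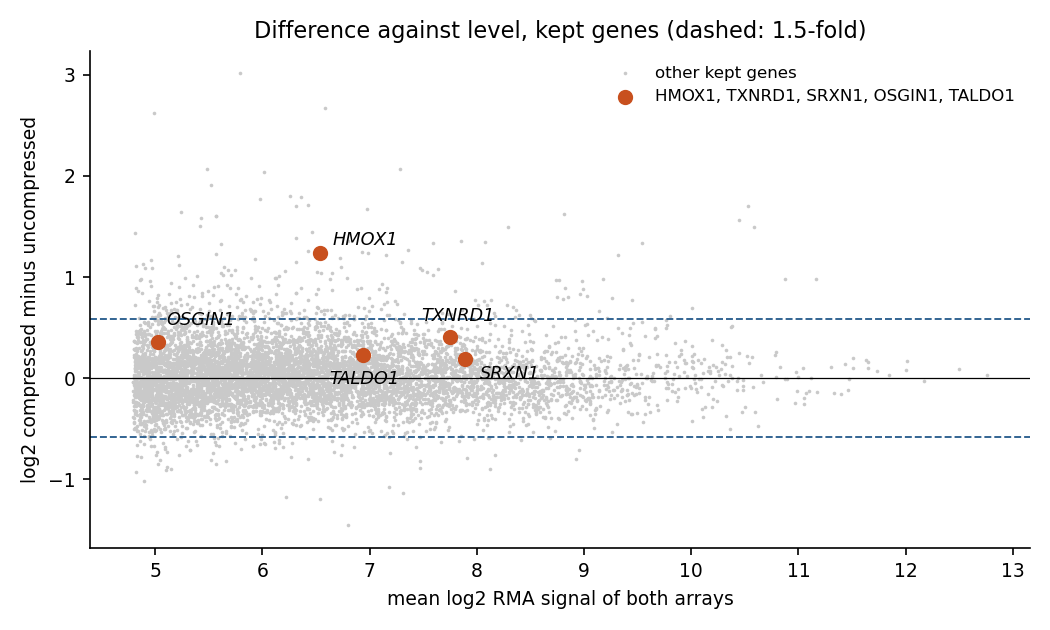
Log2 compressed minus uncompressed (vertical axis) against the mean log2 RMA signal of both arrays (horizontal axis) for the 7442 kept genes (grey), with the 5 genes in orange and 1.5-fold as dashed lines. HMOX1 at 1.23 lies above the dashed line, and TXNRD1, OSGIN1, TALDO1 and SRXN1 lie within the cloud at 0.41, 0.36, 0.23 and 0.19.

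Other targets of NRF2 had differences spread around 0. Of 39 further targets listed, 15 were named on the array and 11 were kept. Of the 11, 0 passed 1.5-fold in either direction, 6 had a positive difference, and the median was 0.00 (-0.07 after repeated quantile normalization), against 0.01 over all kept genes. TXN, the thioredoxin that TXNRD1 reduces, read 11.76 on the compressed array and 11.69 on the uncompressed array. GSR, glutathione reductase, read 10.09 on the compressed array and 10.10 on the uncompressed array. PRDX1, a peroxiredoxin that SRXN1 repairs, read 11.12 on both. The carbonyl reductase gene CBR1 differed by -0.21 and UGDH, UDP-glucose dehydrogenase, by -0.10. BLVRB, which encodes biliverdin reductase B, was the exception at 0.49. NQO1, GCLC, GCLM, SLC7A11, FTH1 and FTL had no named probe set here and were not analysed here, so these counts describe part of the known targets. TXN, GSR, PRDX1 and BLVRB, among others, also stand in lists described below. The lists thus overlap and are not separate evidence.

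Among the regulators of NRF2, 13 of 20 listed genes were named and kept, 0 passed 1.5-fold in either direction, and the median was 0.08. NFE2L2 itself read 7.27 on the compressed array and 6.76 on the uncompressed array, a difference of 0.50 (1.42-fold) that 435 kept genes met or passed. KEAP1, its inhibitor, read 7.47 on the compressed array and 7.77 on the uncompressed array, a difference of -0.30. NFE2L2 was thus higher and KEAP1 lower in the compressed culture, both by less than 1.5-fold. Of the small MAF partners, MAFG differed by 0.40 (5.95 compressed and 5.55 uncompressed) and MAFF by -0.02. CUL3, the scaffold of the ligase that degrades NRF2, differed by -0.15, and CAND1, which exchanges substrate receptors on such ligases, by -0.39. SQSTM1, the autophagy receptor p62 that binds KEAP1, differed by 0.26. The coactivator CREBBP and the kinase GSK3B, which marks NRF2 for a KEAP1-independent route of degradation, had the largest values of the list, 0.53 and 0.51. BACH1 and MAFK had no named probe set here.

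The 4 named genes of heme breakdown were all higher in the compressed culture, while those of heme synthesis had differences of either sign. Of the 4, only HMOX1 passed 1.5-fold, and 50.8% of all kept genes had a positive difference. After HMOX1, the next enzymes of the route reduce biliverdin to bilirubin. BLVRB read 9.90 on the compressed array and 9.41 on the uncompressed array (1.41-fold), and BLVRA, biliverdin reductase A, read 7.93 on the compressed array and 7.50 on the uncompressed array (1.35-fold). HMOX2, the constitutive heme oxygenase, read 6.62 on the compressed array and 6.37 on the uncompressed array, a difference of 0.25. The differences of BLVRB, BLVRA and HMOX2 were met or passed by 6.11%, 7.93% and 18.7% of kept genes. The difference of HMOX1 was 0.98 above that of its paralog HMOX2.

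FECH, the ferrochelatase that inserts iron into the porphyrin in the last step of heme synthesis, read 5.07 on the compressed array and 5.69 on the uncompressed array. At a difference of -0.62 it was 1.53-fold lower, and 31 of 2615 kept genes at a like level had a difference as low. UROS differed by -0.22, ALAD by -0.10, CPOX by 0.07 and UROD by 0.22, all of them enzymes upstream of ferrochelatase. PPOX was under the level floor on both arrays (3.75 compressed and 3.70 uncompressed). Of the 9 kept genes of the heme list, which leaves HMOX1 out, 1 was lower and 0 were higher by 1.5-fold, 6 had a positive difference and the median was 0.22, against 0.14 when PPOX was counted too. FLVCR1, a membrane transporter linked to heme export, differed by 0.23.

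**Figure D3:**
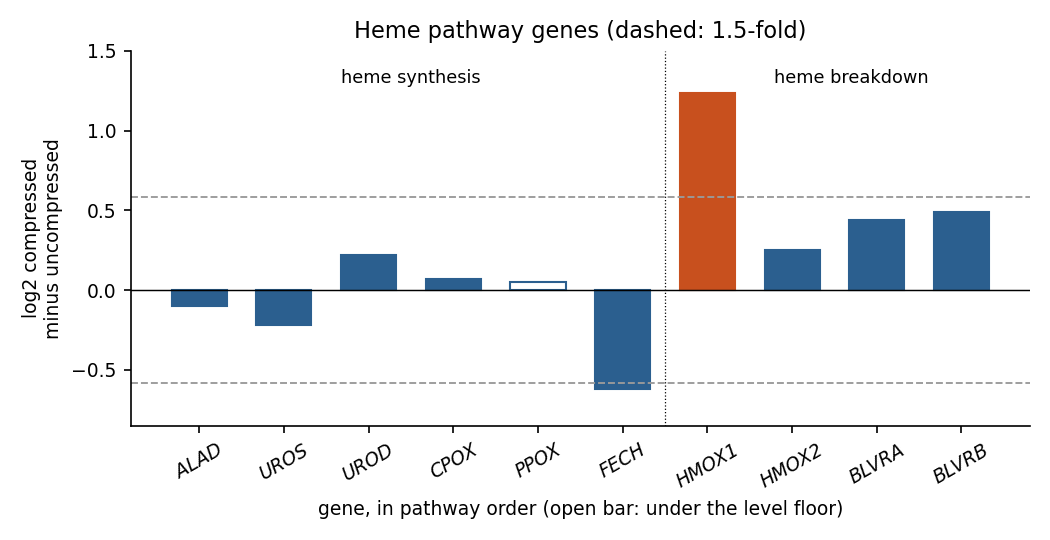
Log2 compressed minus uncompressed (vertical axis) for 10 genes of heme synthesis and breakdown in pathway order (horizontal axis), with 1 array per group, HMOX1 in orange, 1.5-fold as dashed lines and an open bar for PPOX, which is under the level floor. HMOX1 stands at 1.23 and FECH at -0.62, and BLVRA and BLVRB stand at 0.44 and 0.49.

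Iron released from heme is stored, moved or sensed by the products of another list, of which 7 of 22 genes were named and kept. None passed 1.5-fold in either direction, 6 of the 7 had a positive difference, and the median was 0.15. Over all kept genes, 50.8% had a positive difference, and 3.95% were higher and 1.12% lower by 1.5-fold. With 7 of 22 genes seen, the count describes part of the list. CYBRD1, a ferric reductase, read 8.04 on the compressed array and 7.62 on the uncompressed array, a difference of 0.42. FBXL5, the iron-sensing ligase subunit that degrades IREB2, differed by 0.33, PCBP1, an iron chaperone, by 0.18, TFR2, a transferrin receptor, by -0.17, and NCOA4, the receptor that delivers ferritin to lysosomes, by 0.03.

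In the thioredoxin and peroxiredoxin system around TXNRD1 and SRXN1, 21 of 26 listed genes were kept. By 1.5-fold, 1 of these was higher and 0 lower, and a positive difference was found for 12 (57.1%). Of all kept genes, 3.95% were higher and 1.12% lower by that size, and 50.8% had a positive difference. The list's median was 0.07, and it was 0.00 after repeated quantile normalization. SESN2, a stress-induced sestrin, was the higher gene, at 5.57 on the compressed array and 4.81 on the uncompressed array (1.69-fold). Its uncompressed level lay just above the floor of 4.79. Its difference of 0.75 was below that of HMOX1 and above that of TXNRD1. TXNRD2, the mitochondrial reductase, differed by -0.17, and TXNRD1 exceeded it by 0.58. The peroxiredoxins PRDX4, PRDX3, PRDX2 and PRDX6 differed by -0.32, -0.20, -0.13 and -0.11. TXNIP, an inhibitor of thioredoxin, differed by 0.28.

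In the glutathione list, 16 of 38 genes were kept, 0 passed 1.5-fold in either direction, 7 had a positive difference and the median was -0.02 (-0.11 over all 29 named genes). GPX8, a glutathione peroxidase of the endoplasmic reticulum, read 6.56 on the compressed array and 7.03 on the uncompressed array, a difference of -0.47. The transferase genes GSTT1 and MGST2 differed by -0.34 and -0.23, and GPX4, which reduces lipid hydroperoxides, by -0.20. In the pentose phosphate and NADPH list, which leaves TALDO1 out, 11 of 25 genes were kept and 0 passed in either direction. Its median was 0.00, and -0.09 after repeated quantile normalization. TKT, the transketolase that works beside transaldolase, read 9.75 on both arrays, PGLS differed by 0.26, PGD by 0.09 and RPIA by -0.21. TALDO1, at 0.23, was close to PGLS. In the superoxide and peroxide list, 7 of 24 genes were kept, 0 passed in either direction, 3 had a positive difference, and the median was -0.16. CAT, catalase, read 7.35 on the compressed array and 7.85 on the uncompressed array, 1.42-fold lower in the compressed culture. SELENOF, a selenoprotein of the endoplasmic reticulum, differed by -0.33. Among the higher genes of this list, CCS differed by 0.23 and QSOX1 by 0.20.

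Taking the 5 genes and all these lists together, 93 genes were kept. Of these, 2 (HMOX1 and SESN2) were at least 1.5-fold higher and 1 (FECH) was at least 1.5-fold lower. Over all 7442 kept genes, 3.95% were higher and 1.12% lower by that size, and neither share among the 93 was larger. The median difference of the 93 genes was 0.03, against 0.01 over all kept genes.

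**Figure D4:**
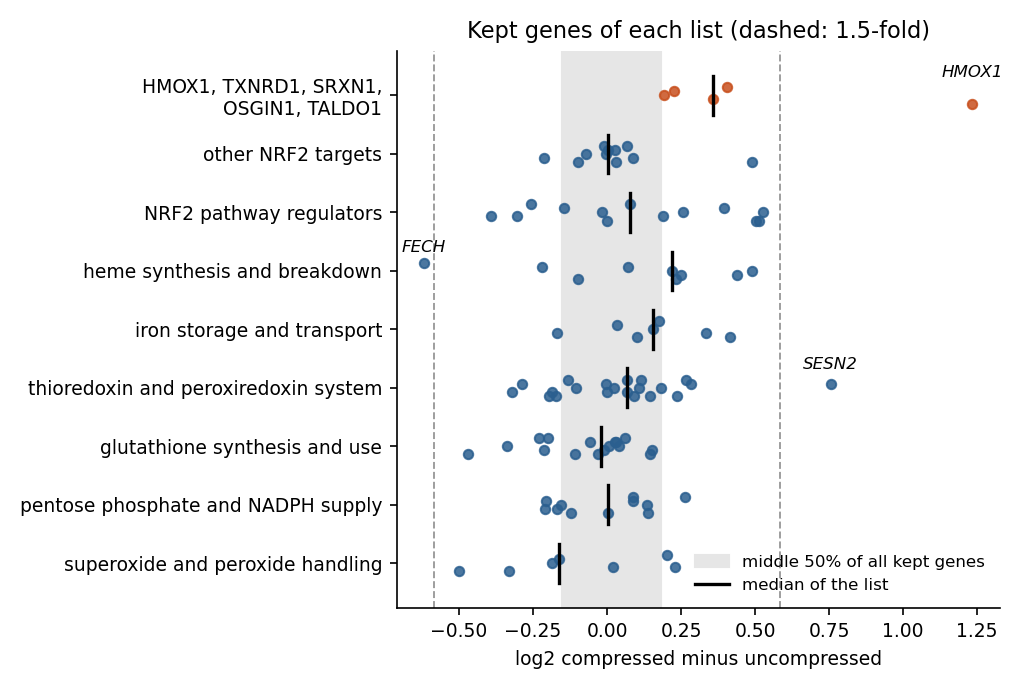
Log2 compressed minus uncompressed (horizontal axis) for each kept gene (point) of 9 groups of genes (rows), with the median of each group as a black bar, the middle 50% of all kept genes (-0.15 to 0.18) shaded and 1.5-fold as dashed lines. HMOX1, SESN2 and FECH lie outside the dashed lines, and the median of the 5 genes, 0.36, lies to the right of the shaded band. The 5 genes were chosen with earlier results of these data known.

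The cell type of the label was checked against marker genes. Of 15 markers of ductal carcinoma and epithelium, 13 were named and 10 kept, of which 0 were higher and 1 was lower by 1.5-fold, with a median difference of 0.03. TSPAN8, a tetraspanin of digestive epithelium and carcinomas, was the lower marker, at 7.52 on the compressed array and 8.31 on the uncompressed array (1.73-fold lower). KRT18 read 11.71 on the compressed array and 11.54 on the uncompressed array, KRT19 10.79 and 10.78, and EPCAM 10.43 and 10.77, in the same order. KRT7 was under the floor on both arrays (3.78 compressed and 3.36 uncompressed). Since macrophages are rich in HMOX1, their markers were read as well. Of 15 macrophage markers, 8 were named and 3 kept. The log2 summed signal of the 8 named markers was 10.18 on the compressed array and 9.91 on the uncompressed array. These sums, and those of the next 2 marker lists, include named markers under the floor. CD163, CD14 and CSF1R were under the floor on both arrays, at 2.43, 3.71 and 4.10 on the compressed array and 2.49, 3.65 and 4.01 on the uncompressed array. The 3 kept markers did not share a direction. CD68, a lysosomal protein that is also found outside macrophages, was 1.75-fold higher (9.26 compressed and 8.45 uncompressed). TYROBP, a signalling adaptor of myeloid cells, differed by 0.47 (5.24 compressed and 4.77 uncompressed), and LYZ, lysozyme, by -0.22 (8.82 compressed and 9.04 uncompressed). The part of these markers in the result for HMOX1 was not tested. Of 10 fibroblast markers, 3 were named and 2 kept. The 3 named markers summed to 9.47 on the compressed array and 9.80 on the uncompressed array. Nearly all of it was the probe set that the annotation names LUM (9.39 compressed and 9.75 uncompressed). Whether that probe set reads LUM is uncertain, since DCN, another fibroblast proteoglycan, was under the floor at 1.82 on the compressed array and 1.79 on the uncompressed array. Of 8 endothelial markers, 6 were named and 1 kept. The 6 named markers summed to 6.38 on the compressed array and 6.47 on the uncompressed array. In bulk RNA, fewer cells of a type and less RNA per cell cannot be told apart.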

How the data were processed

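A pair of arrays of the GeneChip Human Gene 2.0 ST type were used, 1 per group, grouped by the treatment label. The deposited values are log2 signals. Per the submitters' processing notes, the authors used RMA and the Transcriptome Analysis Console. RMA equalises the distributions of the arrays, so a change shared by all genes is removed, and it compresses changes near background. Neither their versions nor a genome build is given in the sources used here. Without detection calls, a dim probe set cannot be placed above or below background.

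Of 53617 probe sets, 16098 had 1 gene in the platform annotation, with symbols updated through RefSeq gene identifiers. Each of 14884 genes was represented by its probe set with the highest mean, and 7442 genes at or above the median mean level were kept. The difference was compressed minus uncompressed, counted at a fixed size of 1.5-fold. On simulated data this rule was tested only for finding added changes larger than 1.5-fold. How often unchanged genes pass it was not counted. The 5 genes and the gene lists were chosen with earlier results of these data known. Genes named are the 5 genes, list members past 1.5-fold, up to 4 kept members per list with the largest differences, a fixed set of pathway genes, the 5 genes nearest to HMOX1, and further list members chosen after their values were seen. Promoter windows came from RefSeq. The alternatives are given with their effect in the closing section. Values were computed with pandas 2.3.3, NumPy 2.4.6 and statsmodels 0.14.6 (loess) under Python 3.11.15, and plots with matplotlib 3.10.9.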

Additional observations from a re-analysis of the deposited data

How the results depend on the processing

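The difference of HMOX1 lay between 1.19 and 1.23 under repeated quantile normalization, loess correction (span 0.3), averaging of probe sets, centring on the median, no level filter and a level filter at the 75th percentile, and its excess over the median of the other 4 genes lay between 0.91 and 0.94 where those 4 were kept. OSGIN1 was under the 75th percentile filter of 6.25, so it and the excess have no value there. Over the same alternatives TXNRD1 ranged from 0.38 to 0.41, OSGIN1 from 0.35 to 0.38, SRXN1 from 0.16 to 0.20 and TALDO1 from 0.18 to 0.23. The scalings moved the median of all kept genes by at most 0.034 in size. Of 133 alternative values, 118 stayed within the limits set (1.5 times for a count, the SD of a single probe set for a difference, and the same side of 1.5-fold), and the 15 that moved were all counts. Part of this was fixed in advance. With 1 probe set each, the 5 genes could not change under the level filters or the averaging of probe sets. Centring shifts all genes alike, so it could not change the excess. A list median near 0 could change sign and still stay within the limits. With no level filter, 560 genes were higher and 421 lower by 1.5-fold, and 3 of the redox genes were lower. With the filter at the 75th percentile, 137 were higher and 30 lower, with 1 redox gene higher (HMOX1) and 0 lower. The number of redox genes that this filter left was not counted, so no share is given. SESN2 and FECH were under that filter. At a size of 2-fold, 71 of the 7442 kept genes were higher and 6 lower, with 1 of the 93 redox genes higher (HMOX1) and 0 lower. At a smaller size of 0.32 on the log2 scale, 1005 of the 7442 were higher and 616 lower, with 12 of the 93 redox genes higher and 6 lower. The higher genes were 78.0% of all calls, 57.1% with no level filter and 69.3% after repeated quantile normalization (239 higher and 106 lower). The medians of the other NRF2 targets (-0.07 to 0.02), of the glutathione list (-0.11 to 0.01) and of the pentose phosphate list (-0.12 to 0.04) have no settled sign. No paired analysis was possible because each group holds 1 array. Each of the 5 genes rests on 1 probe set, OSGIN1 lies close to the level floor, and no spread between cultures can be estimated.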
